A study of Mus musculus with 4 samples.

Results

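The genes described here are the mouse genes with a symbol made of Zfp and a number, which encode zinc finger proteins. Members were chosen by level: the expected counts (the authors' estimated reads per gene) summed over all 4 libraries had to reach 300. Of 336 such symbols considered in a table of 24411 genes, 175 met the minimum, and 161 did not, 14 of which were at 0 in every library. Just inside the minimum lay Zfp870 with a sum of 303, Zfp882 with 306 and Zfp109 with 309. Just outside lay Zfp511 with 298, Zfp184 with 292 and Zfp763 with 291. The rule used the level summed over both genotypes and not the difference between them.

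The study compared hematopoietic stem cells of 2 genotypes on a C57BL/6 background, with 2 mice and 2 libraries for each. Wild-type cells came from Dis3fl/fl donors, in which Dis3 is flanked by loxP sites and, per the labels, no Cre is carried. Dis3-/- cells came from Dis3fl/fl;Mx-Cre donors, in which the interferon-inducible Mx promoter drives Cre, so that deletion is not limited to 1 blood cell type. Dis3 is a catalytic subunit of the RNA exosome, the complex that trims and destroys RNA in the 3′ to 5′ direction. Donor marrow had been grafted into lethally irradiated CD45.1 hosts, which can keep some cells of their own, and no label gives a sort on the CD45 allele. The protocol text shared by both genotypes gives 300 µg of pIpC, an interferon-inducing RNA, on days 0 and 2 and a sort on day 4 of lineage-negative, EPCR-positive, CD150-positive, CD48-negative cells. Each library was made from 100 cells by RamDA-seq, which primes total RNA along its whole length.

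Zinc finger proteins hold small loops of the chain in shape around a zinc ion, and arrays of the C2H2 type of finger read DNA a few bases at a time. Many carry a KRAB domain, which binds the corepressor Trim28 and through it recruits the histone methyltransferase Setdb1 and heterochromatin proteins, a system known for silencing transposable elements. Others lack KRAB and act as transcription factors, chromatin adaptors or RNA-binding proteins, and several are known regulators of blood cell development.

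Libraries held 6085367 to 6818535 counts, and 14785 to 14874 genes were above 0. In these libraries 3 counts correspond to 0.432 to 0.505 CPM (counts over the TMM-scaled library size, the level used below unless TPM is named). The targeted gene, Dis3, had 388 and 335 counts in wild-type against 140 and 193 in Dis3-/- libraries, a log2 fold change of -1.02 ± 0.14 (SE; edgeR adjusted p = 2.58e-04). The labels do not name the deleted part, so reads from the rest of Dis3, from cells that kept the gene and from host cells cannot be told apart here. All 9 stem cell markers listed were tested, with Hlf, Kit and Mllt3 called lower and Ly6a called higher, and their summed level was 2919 to 3354 CPM in wild-type against 2471 to 2491 CPM in Dis3-/- libraries. The 4 B cell markers together stood at 0.159 to 1.56 CPM, with Ebf1 at 0. The 4 T and NK cell markers summed to 60.5 to 85.0 CPM, nearly all from Nkg7, which was not called, while Cd3e and Cd3g were at 0. Markers of dividing cells moved with genotype: 8 of 8 were called higher, and their summed level was 709 and 808 CPM in wild-type against 1745 and 1838 CPM in Dis3-/- libraries. Multipotent and lymphoid progenitor markers moved the other way, with all 3 tested called lower (Cd34, Flt3, Satb1), a summed level of 432 and 453 against 333 and 284 CPM, and Il7r at 0. Erythroid markers summed to 28.5 and 23.7 against 11.1 and 9.23 CPM (2 of 3 tested called lower, Gata1 and Aqp1; Hbb-bs at 0). Endothelial and stromal markers summed to 144 and 135 against 81.0 and 74.7 CPM (2 of 2 lower, Pdgfrb and Pecam1). The 2 mast cell markers, Cpa3 and Kit, were both called lower and summed to 1085 and 1016 against 721 and 701 CPM. That sum is nearly all Kit, which is also a stem cell marker. Cpa3 stood at 6.34 and 12.9 against 5.22 and 1.72 CPM. Granulocyte and monocyte markers summed to 398 and 402 against 304 and 297 CPM, with Csf3r lower of 2 tested, and none of 4 megakaryocyte markers was called. The part of these cell states in the results that follow was not tested. In libraries of sorted cells, fewer cells of a type and less RNA per cell cannot be told apart.

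To show the control regions of members that differed between genotypes, the 250 bases before the RefSeq start (GRCm38.p6, the assembly of mm10) are printed for 6 of them, 3 that were higher and 3 that were lower in Dis3-/- cells. They are among the largest called changes with a promoter entry. Each runs 5′ to 3′ on the strand of the gene, and capitals mark the searched words listed after them.
Zfp367, chr13:64153200-64153449, minus strand: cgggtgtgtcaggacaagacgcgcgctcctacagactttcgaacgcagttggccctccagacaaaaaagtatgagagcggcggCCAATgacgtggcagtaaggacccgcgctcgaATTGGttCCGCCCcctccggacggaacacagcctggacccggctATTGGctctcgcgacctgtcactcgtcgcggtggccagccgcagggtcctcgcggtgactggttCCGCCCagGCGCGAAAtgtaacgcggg
Zfp207, chr11:80383029-80383278, plus strand: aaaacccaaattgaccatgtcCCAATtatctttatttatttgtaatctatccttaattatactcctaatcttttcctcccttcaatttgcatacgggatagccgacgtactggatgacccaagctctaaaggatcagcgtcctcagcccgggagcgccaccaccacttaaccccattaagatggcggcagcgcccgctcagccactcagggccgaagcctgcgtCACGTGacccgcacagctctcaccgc
Zfp638, chr6:83914103-83914352, plus strand: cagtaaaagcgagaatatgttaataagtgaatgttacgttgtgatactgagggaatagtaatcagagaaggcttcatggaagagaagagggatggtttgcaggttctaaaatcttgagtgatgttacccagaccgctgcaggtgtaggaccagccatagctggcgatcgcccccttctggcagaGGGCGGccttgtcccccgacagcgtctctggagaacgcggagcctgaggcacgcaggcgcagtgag
Zfp949, chr9:88547770-88548019, plus strand: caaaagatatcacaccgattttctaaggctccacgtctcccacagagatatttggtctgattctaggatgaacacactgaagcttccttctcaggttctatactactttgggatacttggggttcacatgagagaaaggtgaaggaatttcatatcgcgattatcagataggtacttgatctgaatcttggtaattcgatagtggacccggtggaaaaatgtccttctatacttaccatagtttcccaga
Zfp467, chr6:48445091-48445340, minus strand: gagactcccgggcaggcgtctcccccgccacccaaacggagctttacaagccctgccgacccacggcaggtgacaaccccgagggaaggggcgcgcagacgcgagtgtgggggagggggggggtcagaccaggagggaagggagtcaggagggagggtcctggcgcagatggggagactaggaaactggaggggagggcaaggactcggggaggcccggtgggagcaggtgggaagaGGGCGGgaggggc
Zfp945, chr17:22867135-22867384, minus strand: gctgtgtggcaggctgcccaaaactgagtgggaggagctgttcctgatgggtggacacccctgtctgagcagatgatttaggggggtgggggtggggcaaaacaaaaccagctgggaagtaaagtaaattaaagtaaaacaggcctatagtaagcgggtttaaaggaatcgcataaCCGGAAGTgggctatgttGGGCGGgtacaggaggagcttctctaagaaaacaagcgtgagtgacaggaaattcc

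The words searched on both strands were CCAAT, the GC box word GGGCGG, the ETS word CCGGAAGT, the E-box word CACGTG, the CRE word TGACGTCA, the CHR word TTTGAA, and the E2F words TTTCCCGC, TTTGGCGC, TTTCGCGC and TTTGCCGC. No word lies within another of these. The Zfp367 window held an E2F word, read as GCGCGAAA on the gene's strand, at -19 to -12 from the start, together with CCAAT words beginning at -167, -135 and -91 and GC box words beginning at -128 and -27. The Zfp207 window held CCAAT at -229 and CACGTG at -26. Zfp638 and Zfp467 each had a single GC box word, at -66 and -13, and Zfp945 had the ETS word at -74 and a GC box word at -56. The Zfp949 window held none of the words searched.

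Of the 175 members, 140 had a promoter entry. Their windows held CCAAT in 47.1% of cases against 34.5% of all 27025 promoters, GGGCGG in 48.6% against 32.9%, and the ETS word in 9.29% against 2.93%. E2F words were in 5.00% of member windows and 1.91% of all, the E-box word in 7.14% and 6.05%, the CRE word in 2.86% and 1.62%, and the CHR word in 13.6% and 16.3%. Members with KRAB held CCAAT in 52.7% and GGGCGG in 36.5% of 74 windows, and members without KRAB in 41.5% and 61.5% of 65 windows. These shares describe letters in the windows, and neither binding nor a difference between the classes was tested.

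Between genotypes, 17 of the 175 members were called at an edgeR adjusted p under 0.05, 4 higher and 13 lower in Dis3-/- cells. That is 9.71% of members, against a background of 23.0% of all 12244 tested genes and 27.2% of the 9054 tested genes that also reach a summed count of 300. By direction, 2.29% of members were higher, against 12.7% of all tested genes and 15.1% of those with the minimum count, and 7.43% were lower, against 10.2% and 12.2%. All 175 members passed the filter on low counts. The distance to the background was wider for rises than for falls. Of these 17 members 7 remained called with DESeq2 and 11 with limma on log2(TPM + 1), and all 17 with limma-voom.

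Members' fold changes were narrow. Their median log2 fold change was -0.05, the middle 50% of members lay between -0.23 and 0.12, and the range was -1.04 to 0.74. The interquartile width was 0.345 against 0.447 for all tested genes with the same minimum count. A log2 change of at least 1 in size was reached by 1 member, Zfp831, and by 2.57% of those tested genes. Of the members, 103 lay below 0 and 72 above, that is 58.9% below against 50.3% of all tested genes. For 155 of the 158 members not called, the 95% interval of the log2 change lay within 1 of 0, and for 79 of them within 0.5. The intervals of the other uncalled members reached beyond 0.5, so a change of that size is not excluded in them.

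**Figure D1:**
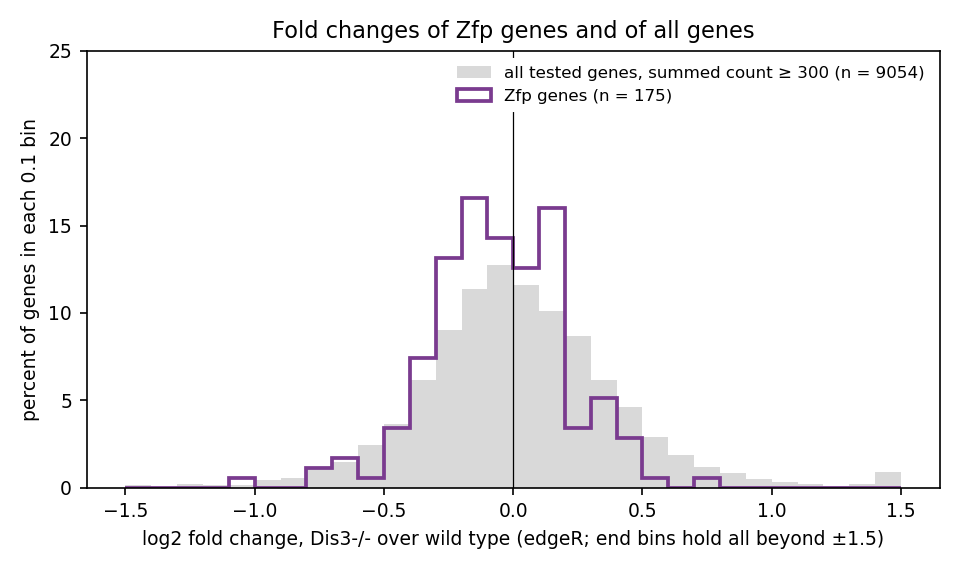
Share of genes in each 0.1-wide bin of the edgeR log2 fold change (Dis3-/- over wild type) for the 175 Zfp genes (line) and for the 9054 tested genes with a summed count of at least 300 (grey), with values beyond 1.5 in size in the end bins. The Zfp genes lie in a narrower band, from -1.04 to 0.74, with a median of -0.05.

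The median SE was 0.155 for members, 0.155 for all tested genes and 0.127 for tested genes with the same minimum count, and the median summed count was 788, 806 and 1276. Calls were therefore also compared within bands of count. Of members with a summed count from 300 to under 500, 0 of 48 were called (16.2% of all tested genes in that band). From 500 to under 1000 counts 4 of 57 members were called, all lower, or 7.02% against 21.9%. From 1000 to under 2000 counts the values were 5 of 32, or 15.6% against 26.6%, and at 2000 counts and more 8 of 38, or 21.1% against 36.9%. In each of the 4 bands the percent called was lower for members, which is a description, as that difference was not tested. At an unadjusted edgeR p under 0.05, 24.0% of members and 35.6% of all genes passed.

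**Figure D2:**
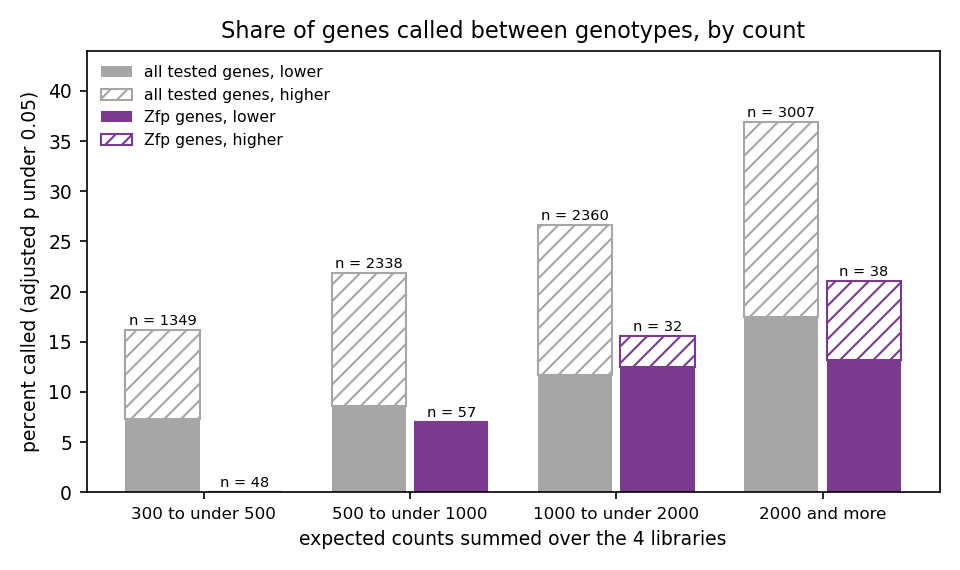
Percent of genes called between genotypes (y axis, edgeR adjusted p under 0.05) in 4 bands of summed expected count (x axis), for all tested genes (grey) and Zfp genes (purple), with solid parts lower and hatched parts higher in Dis3-/- cells. The Zfp bar is the shorter one in each band, with 0 of 48 called in the lowest and 8 of 38 in the highest.

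Separation of the libraries lay under the background where Dis3-/- cells were above wild type, and near it where they were below. In 89 members (50.9%) the libraries of the genotypes did not overlap in CPM, against 62.4% of all tested genes. Of these, 31 (17.7%, background 31.9%) had both Dis3-/- libraries above and 58 (33.1%, background 30.5%) had both below. All 17 called members are among the 89, so this separation adds no support of its own to a call. Replicates of a member differed by a median factor of 1.10 in wild-type and 1.11 in Dis3-/- cells, with the widest gaps for Zfp870 in wild-type (2.18) and Zfp324 in Dis3-/- cells (2.01). Members made up 1.04% and 1.02% of all counts in the wild-type libraries and 0.935% and 0.980% in the Dis3-/- libraries.

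Members are encoded by long transcripts, and long genes as a whole leaned lower in Dis3-/- cells. The median relative length of a member was 1.40, where 1 is the median tested gene. In the longest tercile of tested genes the median log2 change was -0.10 over all genes and -0.08 over 94 members. In the middle tercile it was 0.00 over all genes and -0.06 over 66 members, and in the shortest tercile 0.13 over all genes and 0.03 over 15 members. With an offset for length in edgeR, 6 members were higher and 7 lower, and their median was -0.01. On TPM values (limma, log2 TPM + 1), 2 members were higher and 14 lower, and the median of all genes shifted to -0.11 with that of members at -0.16. The split between higher and lower members therefore depended on the scaling.

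The highest levels, compared between genes as TPM since TPM corrects for length, were spread over members of several kinds. Zfp36, or tristetraprolin, which binds AU-rich elements in messenger RNA and promotes their decay, stood first at a mean of 525 TPM over all libraries. It had 2505 and 2346 counts in wild-type against 1708 and 3133 in Dis3-/- libraries, so the Dis3-/- pair enclosed the wild-type pair. The log2 change was 0.09 ± 0.16 (edgeR adjusted p = 0.751), and it was 0.42 on leaving out Dis3-/- replicate 1 (edgeR adjusted p = 8.14e-05) and -0.35 on leaving out Dis3-/- replicate 2 (edgeR adjusted p = 8.08e-03). The direction of Zfp36 therefore rested on which Dis3-/- library was used. Zfp207 followed at 306 TPM, Zfp106 at 144, Zfp655 at 115 and Zfp706 at 106. The remaining 170 members lay at or below 100 TPM, and 85 lay under 20, with a lowest value of 3.45 TPM and a median of 21.0 TPM.

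The 4 members that rose all lack KRAB, and 3 of them have 2 fingers. Zfp367, a C2H2 transcription factor first described in erythroid cells, had 491 and 470 counts in wild-type against 635 and 625 counts in Dis3-/- libraries. Its level was 72.7 ± 2.76 CPM (SD, n = 2) in wild-type and 102 ± 6.47 CPM in Dis3-/- cells, a log2 fold change of 0.49 ± 0.10 (edgeR adjusted p = 2.63e-03). Both Dis3-/- libraries lay above both wild-type ones. Its exons overlap those of Gm47513 on the opposite strand over 603 bases, and the labels do not say whether counting used the strand. Its promoter window is the one printed first, with the E2F word near the start. An E2F word was in 1 of 3 windows of members called higher and in 1 of 9 of those called lower. A link between the word and the change was not tested.

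Zfp207, also called BuGZ, binds microtubules and the checkpoint protein Bub3 and takes part in spindle assembly. It had 1824 and 1669 counts in wild-type against 2023 and 2324 in Dis3-/- libraries, or 264 ± 1.60 against 352 ± 16.2 CPM (SD, n = 2), a log2 change of 0.42 ± 0.07 (edgeR adjusted p = 1.37e-03). Neither pair of libraries reached the other. Zfp638, also called NP220, binds cytidine-rich DNA and takes part in silencing of unintegrated retroviral DNA. It had 733 and 694 counts against 799 and 860, a log2 change of 0.32 ± 0.08 (edgeR adjusted p = 0.0152), which became 0.29 on leaving out wild-type replicate 1 (edgeR adjusted p = 0.102). The Zfp638 call also ended with DESeq2 (adjusted p = 0.0628) and with limma on log2(TPM + 1), where the change was 0.18 (adjusted p = 0.229). Zfp397, which carries a SCAN domain, a module for pairing with other SCAN proteins, had 411 and 372 counts against 432 and 514. Its log2 change was 0.37 ± 0.11 (edgeR adjusted p = 0.0218). This call was lost on leaving out wild-type replicate 1 (0.38, edgeR adjusted p = 0.0703), on leaving out wild-type replicate 2 (0.37, edgeR adjusted p = 0.0707) and on leaving out Dis3-/- replicate 2 (0.30, edgeR adjusted p = 0.122), and also with DESeq2 (adjusted p = 0.101) and with limma on log2(TPM + 1) (0.25, adjusted p = 0.216).

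The steepest fall was that of Zfp831. It had 714 and 701 counts in wild-type against 304 and 340 counts in Dis3-/- libraries, and the level went from 107 ± 5.98 to 52.2 ± 1.41 CPM (SD, n = 2). The log2 fold change was -1.04 ± 0.10 (edgeR adjusted p = 1.65e-05). The gap between the pairs was many times the spread within either. Zfp831 and Zfp521 were the 2 members called under all 14 alternatives tried.

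Zfp521, also known as Evi3, is a many-fingered cofactor of primitive hematopoietic cells that restrains the B cell factor Ebf1. It had 832 and 718 counts in wild-type against 401 and 475 in Dis3-/- libraries, or 117 ± 4.13 against 70.9 ± 4.79 CPM (SD, n = 2). The log2 change was -0.72 ± 0.10 (edgeR adjusted p = 1.60e-04), and the pairs did not overlap. Zfp467, known for steering mesenchymal cells between bone and fat fates, had 278 and 288 counts against 173 and 155. Its level was 42.9 ± 4.02 against 26.7 ± 3.45 CPM (SD, n = 2), with a log2 change of -0.69 ± 0.15 (edgeR adjusted p = 4.71e-03).

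Further members without KRAB fell by less. Zfp516, which activates the brown fat gene Ucp1, had 556 and 607 counts against 334 and 469, a log2 change of -0.44 ± 0.13 (edgeR adjusted p = 0.0268). It was -0.31 on leaving out wild-type replicate 2 (edgeR adjusted p = 0.164) and -0.26 on leaving out Dis3-/- replicate 1 (edgeR adjusted p = 0.159). Zfp318, needed in B cells for making IgD beside IgM, had 446 and 413 counts against 293 and 318, a log2 change of -0.39 ± 0.11 (edgeR adjusted p = 0.0207). Leaving out any of the 4 libraries ended this call at log2 changes of -0.40 to -0.38 (edgeR adjusted p = 0.0565 to 0.078). Zfp281, a GC-rich-sequence binding factor of pluripotent cells that works with the NuRD corepressor, had 634 and 572 counts against 435 and 448. Its log2 change was -0.35 ± 0.10 (edgeR adjusted p = 0.0191). This call was lost in edgeR with wild-type replicate 1 left out (-0.34, adjusted p = 0.0731), with wild-type replicate 2 left out (-0.35, adjusted p = 0.0591) and with Dis3-/- replicate 2 left out (-0.31, adjusted p = 0.0824). Zfp516, Zfp318 and Zfp281 were also not called with DESeq2 (adjusted p = 0.0578, 0.0941 and 0.0798) or with the length offset in edgeR (adjusted p = 0.0956, 0.104 and 0.0837), nor were Zfp516 and Zfp318 on log2(TPM + 1) in limma (adjusted p = 0.0733 and 0.156).

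The smallest called falls belonged to 3 members. Zfp512 had 496 and 464 counts against 348 and 370, a log2 change of -0.32 ± 0.10 (edgeR adjusted p = 0.0426), and was not called once any of the 4 libraries was left out (-0.34 to -0.30, edgeR adjusted p = 0.0962 to 0.155). With the replicate number as a block its edgeR adjusted p was 0.0613. Zfp292 had 1589 and 1317 counts against 1109 and 1061, a log2 change of -0.31 ± 0.09 (edgeR adjusted p = 0.0193), which was -0.25 on leaving out wild-type replicate 1 (edgeR adjusted p = 0.146) and -0.23 on leaving out Dis3-/- replicate 2 (edgeR adjusted p = 0.127). Zfp608, a repressor of Rag gene expression in thymocytes, had 1760 and 1368 counts against 1156 and 1210, a log2 change of -0.30 ± 0.09 (edgeR adjusted p = 0.0265). It was -0.18 on leaving out wild-type replicate 1 (edgeR adjusted p = 0.288), a move of over 1.5 times, and -0.27 on leaving out Dis3-/- replicate 2 (edgeR adjusted p = 0.0813). In all 3 genes the pairs of libraries did not overlap, as in all 17 called members and in 62.4% of all tested genes. Wild-type replicate 1 was the highest library of Zfp292 and Zfp608. The length offset in edgeR ended the calls of Zfp292 (-0.16, adjusted p = 0.231), Zfp608 (-0.19, adjusted p = 0.142) and Zfp512 (-0.30, adjusted p = 0.0557), and DESeq2 ended that of Zfp512 (adjusted p = 0.169). Exons of Zfp608 overlap Gm26742 on the opposite strand over 79 bases.

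**Figure D3:**
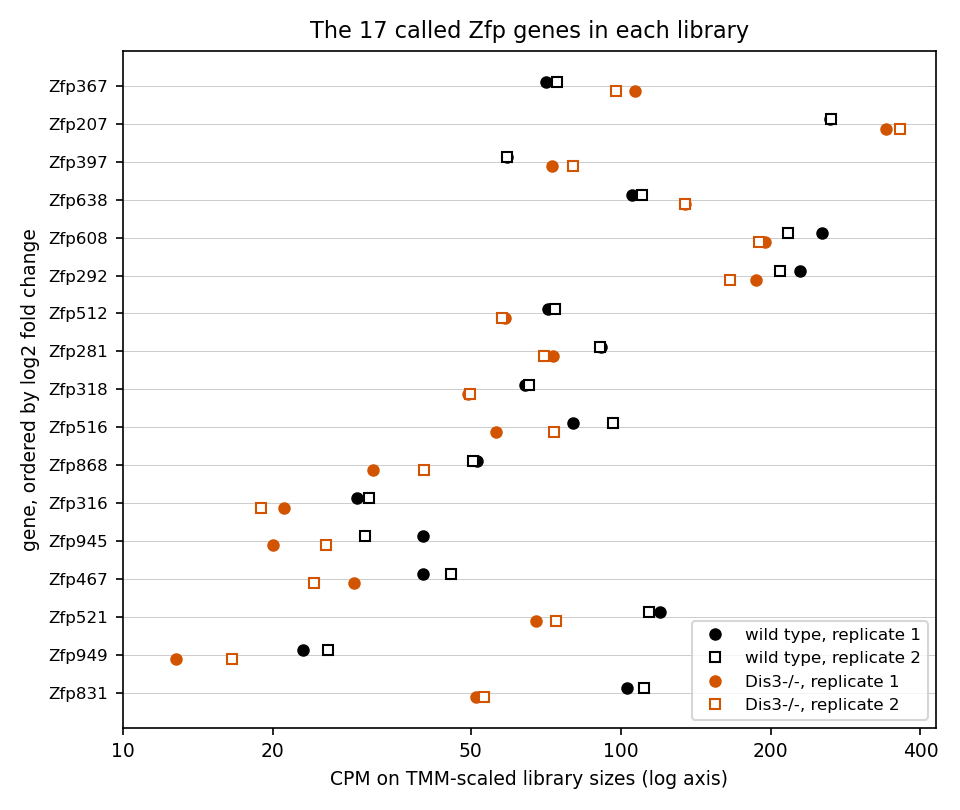
Level in CPM on TMM-scaled library sizes (log axis) of the 17 called Zfp genes in each library, genes ordered by log2 fold change, with black marks for wild type, orange marks for Dis3-/-, circles for replicate 1 and squares for replicate 2. In each row the 2 black and the 2 orange marks do not overlap, with the widest gap for Zfp831 and with orange to the right in the top 4 rows only.

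Of the members, 84 encode a KRAB domain in at least 1 isoform, 90 do not, and Zfp783 had no coding sequence in the annotation used. KRAB members were the lower expressed class, with a median of 12.6 TPM against 30.2 TPM and a median summed count of 589 against 1300. None of the 84 rose and 4 fell (4.76%), while 4 of the 90 without KRAB rose and 9 fell (14.4%). Both shares lie below the 23.0% of all tested genes. The median log2 change was -0.07 in the KRAB class and -0.05 in the other. The KRAB class had the larger median SE, 0.179 against 0.128, and a difference between the classes was not tested. As a share of all counts the KRAB class made up 0.325% and 0.314% in wild-type against 0.279% and 0.296% in Dis3-/- libraries.

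The 4 KRAB members that fell were Zfp949, Zfp945, Zfp316 and Zfp868. Zfp949 had 160 and 163 counts in wild-type against 76 and 106 in Dis3-/- libraries, or 24.5 ± 2.00 against 14.7 ± 2.67 CPM (SD, n = 2), a log2 change of -0.73 ± 0.19 (edgeR adjusted p = 0.0143). It was -0.65 on leaving out wild-type replicate 2 (edgeR adjusted p = 0.0582) and -0.56 on leaving out Dis3-/- replicate 1 (edgeR adjusted p = 0.0794). For the other 3, some counts are not whole, which marks reads the authors' counting divided with similar genes, and their values are less certain. Zfp945 had 278 and 193.22 counts against 118.58 and 164.32, a log2 change of -0.63 ± 0.18 (edgeR adjusted p = 0.0203), and it was -0.42 on leaving out wild-type replicate 1 (edgeR adjusted p = 0.178) and -0.46 on leaving out Dis3-/- replicate 1 (edgeR adjusted p = 0.088). Zfp316 had 205.49 and 197 counts against 125 and 121, a log2 change of -0.61 ± 0.16 (edgeR adjusted p = 0.0148), with -0.57 (edgeR adjusted p = 0.0569) on leaving out wild-type replicate 2 and -0.53 (0.0834) on leaving out Dis3-/- replicate 2. Zfp868 had 357.70 and 317.51 counts against 189.44 and 258.10, a log2 change of -0.50 ± 0.14 (edgeR adjusted p = 0.0191), with -0.48 (edgeR adjusted p = 0.0567) on leaving out wild-type replicate 1 and -0.34 (0.147) on leaving out Dis3-/- replicate 1. None of these 4 calls held when each library was left out in turn, and none held with DESeq2 (adjusted p = 0.0624 for Zfp949, 0.0666 for Zfp945, 0.0768 for Zfp316 and 0.0693 for Zfp868). In limma on log2(TPM + 1), Zfp945 and Zfp316 were not called (adjusted p = 0.0801 and 0.0635). Of the 42 members with a count that was not whole, 31 were KRAB members.

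SCAN was found in 11 members, 7 of which also carry KRAB. Zfp397 was the only one of the 11 called (9.09%, beside 23.0% of all tested genes). The number of C2H2 finger patterns in the longest protein ranged from 0 to 36 with a median of 10, and 3 members had none, among them Zfp36, whose fingers are of another type. Members with 0 to 3 fingers had 3 rises and 5 falls among 25 (32.0%), and they had the highest median summed count, 2067. With 4 to 9 fingers 1 of 57 rose and 1 fell (3.51%). With 10 to 14 fingers 5 of 54 fell (9.26%), and with 15 or more 2 of 38 fell (5.26%). The share called was 23.0% of all tested genes and 36.9% of those with 2000 counts and more. Over 174 members Spearman's rho between finger number and log2 change was -0.0174, given as a description over genes that share the same 4 libraries.

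**Figure D4:**
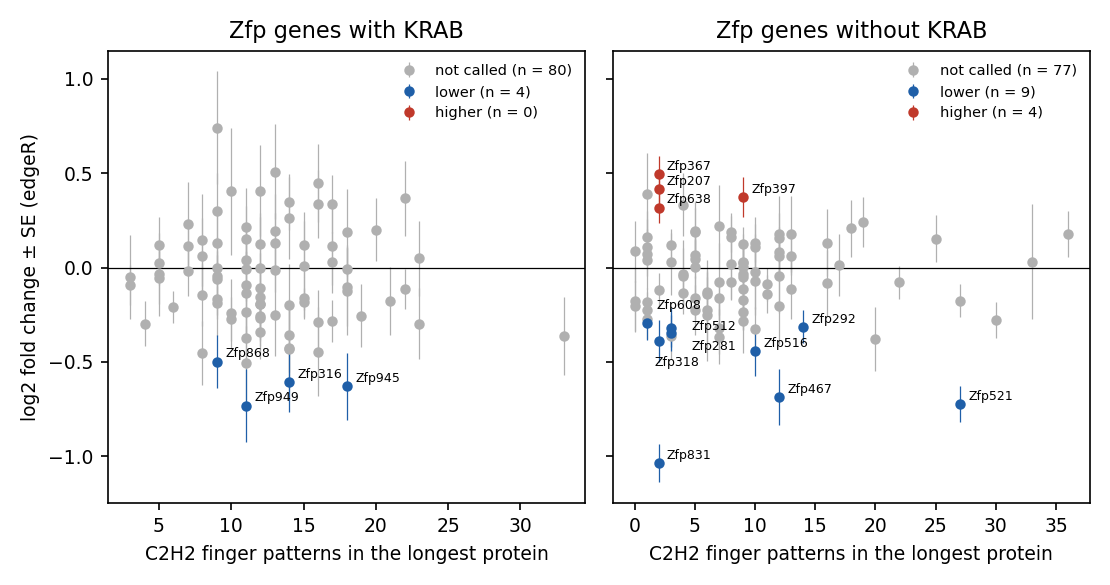
Number of C2H2 finger patterns in the longest protein (x axis) against the edgeR log2 fold change ± SE (y axis, Dis3-/- over wild type), for 84 Zfp genes with KRAB (left) and 90 without (right), with called genes in red (higher) and blue (lower). The 4 higher genes are all in the right panel, 3 of them with 2 fingers, and the 4 lower KRAB genes have 9 to 18 fingers.

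A list of 6 members with a described role or expression in blood cells had 4 that fell (Zfp318, Zfp467, Zfp521 and Zfp608) and none that rose, with a median log2 change of -0.34 beside -0.0027 over all tested genes. The share called was 66.7%, where it was 23.0% of all tested genes and 36.9% of those with 2000 counts and more, and the median summed count of the 6 was 3875. Zfp467 is better known from bone and fat, as given above. Zfp91, a ubiquitin ligase of the noncanonical NF-kappaB pathway, stood at 0.06 ± 0.09 (edgeR adjusted p = 0.652) and Zfp36 is given above. The list was chosen with results known and gives no independent evidence of a direction, and the progenitor markers named earlier were lower in the same libraries.

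In a list of 11 members drawn up for RNA and ribosomes, Zfp207 and Zfp638 rose and none fell, with a median log2 change of 0.11. The roles given above for Zfp207 and Zfp638 are on the spindle and on DNA, so their rises do not speak for a role in RNA. The share called, 18.2%, lies near the 23.0% of all tested genes. Zfp598, the ubiquitin ligase that senses collided ribosomes, had 584 and 527 counts in wild-type against 560 and 557 in Dis3-/- libraries, a log2 change of 0.11 ± 0.10 (edgeR adjusted p = 0.439). Zfp622, a factor of large ribosomal subunit maturation, had 441 and 428 counts against 271 and 362, a log2 change of -0.36 ± 0.13 (edgeR adjusted p = 0.0524). Its libraries did not overlap. The log2 change of Zfp622 was -0.52 on leaving out Dis3-/- replicate 2 and -0.21 on leaving out Dis3-/- replicate 1. It was not called with DESeq2 (adjusted p = 0.162) and was called with limma-voom (adjusted p = 0.0493). Zfp106, an RNA-binding protein of nerve and muscle, had 3858 and 3434 counts against 3554 and 3818, a log2 change of 0.12 ± 0.06 (edgeR adjusted p = 0.204).

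Of 15 chromatin adaptors and corepressor partners, Zfp281 fell and none rose (6.67% called, background 23.0%), with a median of -0.08. Zfp532, which with Zfp592 and Zfp687 forms a complex of chromatin readers, had 652 and 483 counts against 391 and 452, a log2 change of -0.32 ± 0.11 (edgeR adjusted p = 0.0570), while Zfp592 stood at -0.08 and Zfp687 at 0.03. Without wild-type replicate 2 Zfp532 was called (-0.46, edgeR adjusted p = 0.0131). Of 6 sequence-specific activators, Zfp367 rose and none fell (16.7% called, background 23.0%), with a median of 0.19, and Zfp384 stood at 0.19 ± 0.10 (edgeR adjusted p = 0.219).

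None of the 4 members listed for guarding imprints or silencing retroelements was called. Zfp638, which takes part in silencing of unintegrated retroviral DNA, was called higher but is counted above in the list for RNA and ribosomes. Zfp445, a guardian of imprinted methylation, had 1135 and 1062 counts against 811 and 982, a log2 change of -0.19 ± 0.09 (edgeR adjusted p = 0.124). Zfp809, which silences murine leukemia proviruses, had 234 and 200 counts against 203 and 235, a log2 change of 0.12 ± 0.14 (edgeR adjusted p = 0.594; 95% interval -0.18 to 0.41). Zfp568, a KRAB protein of placental development, stood at -0.24 (edgeR adjusted p = 0.234).

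The partners through which KRAB members act were measured in the same libraries. Of 22 tested genes of the KRAB corepressor machinery, 7 rose and 2 fell, with a median log2 change of 0.21. The share called was 40.9%, beside 23.0% of all tested genes and 36.9% of tested genes with 2000 counts and more; the list's median summed count was 4221, so its share lies near that of genes with like counts. Trim28, the corepressor that binds KRAB, had 3815 and 3788 counts in wild-type against 4552 and 4586 in Dis3-/- libraries, or 576 ± 36.7 against 742 ± 34.7 CPM (SD, n = 2), a log2 change of 0.37 ± 0.07 (edgeR adjusted p = 2.02e-03). The heterochromatin protein genes Cbx3 (0.64 ± 0.08, edgeR adjusted p = 8.92e-05) and Cbx5 (0.62 ± 0.08, edgeR adjusted p = 8.26e-05) rose, and so did Uhrf1 and Dnmt1, which copy DNA methylation after replication (0.67 ± 0.08 and 0.54 ± 0.07, edgeR adjusted p = 7.83e-05 and 7.93e-05). Sumo2 (0.44 ± 0.09, edgeR adjusted p = 2.76e-03) and Hdac2 (0.40 ± 0.12, edgeR adjusted p = 0.0305) rose as well, and the Hdac2 call ended in edgeR with wild-type replicate 2 left out (0.31, adjusted p = 0.156) and with Dis3-/- replicate 1 left out (0.26, adjusted p = 0.211). It also ended with DESeq2 (adjusted p = 0.102) and with limma on log2(TPM + 1) (adjusted p = 0.112), and that of Sumo2 with the length offset in edgeR (0.24, adjusted p = 0.0553). Atf7ip, which stabilises Setdb1, fell by 0.31 (SE 0.07, edgeR adjusted p = 9.62e-03), and the nucleosome remodeller Chd3 fell by 0.23 (SE 0.07, edgeR adjusted p = 0.0294). The Chd3 call ended when any of the 4 libraries was left out (-0.24 to -0.22, edgeR adjusted p = 0.058 to 0.111), with a replicate block (0.0597) and with the length offset (-0.11, 0.28). Setdb1 itself had 657.49 and 715.09 counts against 675.23 and 677.21, a log2 change of 0.08 ± 0.10 (edgeR adjusted p = 0.633). The dividing-cell markers given earlier rose in the same libraries, and their part was not tested.

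**Figure D5:**
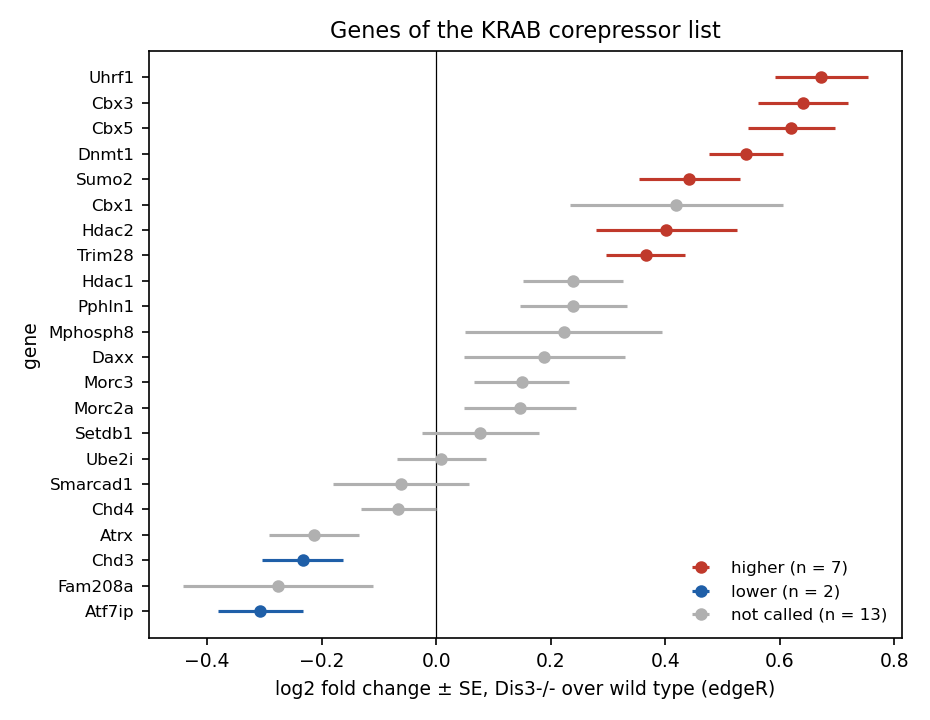
EdgeR log2 fold change ± SE (x axis, Dis3-/- over wild type) of the 22 tested genes of the KRAB corepressor list, ordered by value, with red for called higher, blue for called lower and grey for not called. The 7 higher genes lie between 0.37 (Trim28) and 0.67 (Uhrf1), and Setdb1 lies near 0.

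Some members lie in clusters. Counting runs of at least 3 members whose starts lie within 500 kb, 15 clusters held 66 members, of which 50 (75.8%) carry KRAB. In them 1 member rose and 3 fell, where 23.0% of all tested genes were called. Their median log2 change was -0.03, and the 109 members outside had a median of -0.08. Chromosome 7 held the most members, 41, and none of them was called. Their median summed count was 617, and 21.9% of all tested genes with 500 to under 1000 counts were called. On chromosome 18, 1 of 9 members rose and 3 fell (44.4%). The median summed count of these 9 was 2020, and 36.9% of all tested genes with 2000 counts and more were called. A difference between chromosomes was not tested. The largest cluster, chr6:47835633-48445992, held 8 members, 6 of them below 0. In the cluster at chr7:24081877-24252339 the members Zfp180, Zfp111 and Zfp109 had a median of 0.35, with none below 0 and none called. The opposite held at chr17:22846697-23564226, where Zfp945, Zfp40 and Zfp213 had a median of -0.446, with 3 below 0 and 1 called lower. Reads of neighbours in a cluster can resemble each other, so these members are not independent.

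Sharing of exon bases with another gene touches many members: 50 overlap a gene on the opposite strand and 10 overlap one on the same strand. Among the called ones this holds for 2, Zfp367 and Zfp608.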

How the data were processed

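RamDA-seq libraries of 100 sorted cells were grouped by the genotype in the labels, 2 per genotype, and the design text gives 2 mice per genotype. The authors deposited expected counts per gene, not normalized, and a second table of TPM (scaled by length to a common total). Per the submitters' processing notes, the build was mm10 and the tools were RSEM 1.3.3, STAR 2.7.8a and Trim Galore 0.6.6; tool roles, annotation and strand use were not given in the sources used here. In the expected counts 92.3% to 92.6% of values were exactly whole, zeros included.

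Members, gene lists and alternatives were chosen with earlier results of these data known, so counts over a list are descriptions. Rounded expected counts of the whole table were tested in R 4.3.3 with edgeR 4.0.16 (low counts removed by filterByExpr, minimum count 10 and minimum total 15; TMM; glmQLFit and 2-sided glmQLFTest; Benjamini-Hochberg over 12244 genes; threshold 0.05). SE is the absolute log2 change divided by the root of F, and the 95% interval uses the residual and prior degrees of freedom. The SE and the interval thus include the spread between replicate libraries, while the floor of 3 counts uses no replicate. Alternatives used DESeq2 1.42.0, limma 3.58.1 on log2 TPM with a pseudocount of 1 or 0.1, voom, RLE scaling, robust empirical Bayes, no filter, a replicate block, a lowess length offset (span 0.3), a minimum sum of 200 or 500, and each library left out. The procedure was also run on simulated counts in which every gene had the same dispersion. That setting differs from these data, and no result here rests on it. Replicate numbers are not said to mark a shared litter or day.

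Finger patterns, KRAB and SCAN came from translated GENCODE M21 coding sequences, the domains by profile search with pyhmmer 0.12.3 (E under 0.001; 52 KRAB and 22 SCAN seed windows). Positions and promoters are from RefSeq GRCm38.p6, with 173 members matched by symbol and 2 by an older symbol. The text names the 10 called members with the largest change in each direction, the 5 with the highest TPM, members at the minimum, role groups and corepressor genes. Zfp512, Zfp292, Zfp365, Zfp324 and the cluster members lie outside that rule: their values were seen first. No column of another sample was in the tables, and 1 gene with a fitting symbol is not reported here.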

Additional observations from a re-analysis of the deposited data

How the results depend on the processing

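With 2 libraries per genotype, small changes are limited by replicate spread, and low members by depth. The share of members called was below that of all genes under each of the 14 alternatives (1.14% to 12.6% against 5.77% to 24.5%). DESeq2 called 1000 genes higher and 742 lower (edgeR 1561 and 1250), with 2 members higher and 5 lower (edgeR 4 and 13). Limma on log2(TPM + 1) without a filter called 479 genes higher and 471 lower, with 0 members higher and 2 lower. With the filter, limma on TPM called 2 members higher with either pseudocount, and the length offset left 7 members lower. Leaving out 1 library gave 1226 to 1319 genes higher and 886 to 1060 lower, 3 to 10 members higher (10 without Dis3-/- replicate 1) and 8 to 12 lower (8 without wild-type replicate 1). With a replicate block 4 members were higher and 14 lower (1463 and 1151 genes). The deviations of same-numbered libraries correlated at r = -0.0293 over 12244 genes. That value shows no shared shift in level, but it cannot tell whether same-numbered libraries shared a litter or day. The cause of these differences was not tested.

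Of the 17 called members 7 remained called with DESeq2, 17 with RLE scaling, voom, robust empirical Bayes and no filter, 16 with the block, 11 with the length offset, 11 on TPM, 2 on TPM without a filter and 8 to 11 without 1 library. Zfp207, Zfp367 and Zfp467 lost the call only on TPM without a filter (limma adjusted p = 0.0552, 0.0604 and 0.0519), and no called member changed direction under any alternative. Genes that were not called changed sign. On TPM (+ 1, + 0.1, and + 1 without a filter) Zfp36 was at -0.07612, -0.07636 and -0.07612, Zfp706 at -0.07254, -0.07315 and -0.07254, Zfp598 at -0.0009466, -0.0009657 and -0.0009466, Zfp91 at -0.05041, -0.05096 and -0.05041, and Setdb1 at -0.03072, -0.03116 and -0.03072. Zfp36 was at 0.4216 without Dis3-/- replicate 1 and -0.3482 without Dis3-/- replicate 2, Zfp706 from -0.03172 (without Dis3-/- replicate 1; -0.0003179 without wild-type replicate 2) to 0.1147, Zfp91 from -0.04407 (without Dis3-/- replicate 1) to 0.1713, and Setdb1 from -0.0483 (without wild-type replicate 1) to 0.2103. A minimum sum of 200 or 500 left 4 members higher and 13 lower.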

Other observations

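Zfp genes below the minimum count held 1 large difference. Of 161 such symbols 123 were tested, and 1 was called (0.813%, beside 23.0% of all tested genes). Zfp365, known for a role in genome stability, had 6 and 4 counts in wild-type and 33 and 40 counts in Dis3-/- libraries, or 0.750 ± 0.162 against 5.90 ± 0.495 CPM (SD, n = 2). Log2 changes ran from -1.83 to 2.94 over the 123 tested genes below the minimum, with a median SE of 0.374. Over the 175 members above the minimum they ran from -1.04 to 0.74, with a median SE of 0.155. The log2 change of Zfp365 was 2.94 ± 0.51 (edgeR adjusted p = 1.18e-03). Zfp365 kept its direction under 14 alternatives, with log2 changes from 1.52 to 3.18. Its wild-type counts lie near the floor of 3 and under the filter's minimum of 10. Zfp365 thus passed the filter only through the Dis3-/- libraries, where it was high. Its p value and the alternatives therefore add no support of their own, and its fold change is uncertain in size. Zfp365 was chosen after its values were seen.

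Values for other families of C2H2 proteins follow. Of 38 tested Zbtb genes, which join fingers to a BTB domain, 1 rose and 6 fell (median log2 change -0.07). The share called was 18.4%, near the 23.0% of all tested genes, and 21.2% against 27.2% at a summed count of at least 300. Of 8 Zkscan genes 0 rose and 1 fell (12.5% called, median -0.12), and of 9 Zscan genes 1 rose and 0 fell (11.1% called, median -0.08). Both shares lie below the 23.0% of all tested genes. The families were not tested against the Zfp genes.

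Zfp324, a KRAB gene with the largest rise of any member, was not called: it had 74 and 53 counts in wild-type and 63 and 136 counts in Dis3-/- libraries, a log2 change of 0.74 ± 0.30 (edgeR adjusted p = 0.0897). Without Dis3-/- replicate 1 it was 1.16 with an edgeR adjusted p of 6.39e-04, and without Dis3-/- replicate 2 it was 0.15 (edgeR adjusted p = 0.805).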
